A study of Homo sapiens with 17 samples.

Results

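The genes described here are the cytokines IL6, LIF, IL11 and CLCF1, the receptor chains IL6ST, LIFR, OSMR and IL6R, the transcription factor STAT3 and its feedback inhibitor SOCS3. They were chosen by symbol and comprise 10 of the 58870 entries of the count table, and each symbol matched an entry. RNA came from the human cell line MDA-MB-231, derived from a breast cancer of the triple-negative type and labelled mesenchymal and basal B. Cells received 45 nM TRAIL, a TNF-family ligand of death receptors, a dose described as suboptimal so that living cells would be measured. RNA was taken at 0, 1, 3, 6, 12 and 24 h, from 3 libraries per time and from 2 at 1 h. Every library carries the label TRAIL treated, also those at 0 h, and all cells were kept in RPMI with serum. No untreated library of a later time was among them, so the effects of TRAIL and of time in culture cannot be told apart. The labels do not say that replicates came from separate cultures, so p-values measure the spread between these libraries, which may be technical.

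Cytokines of the IL6 type signal through receptor complexes that share IL6ST, also called gp130. IL6 and IL11 first bind a chain of their own (IL6R or IL11RA) and then IL6ST, whereas LIF uses IL6ST paired with LIFR, and OSMR pairs with IL6ST for oncostatin M. The complexes activate JAK kinases, which phosphorylate STAT3, and STAT3 induces SOCS3, which binds IL6ST and the kinases and dampens the signal. In breast cancer cells this family is known for autocrine and paracrine signalling with stromal and immune cells, and the IL6 and IL11 genes are known targets of NF-kappaB and AP-1 factors.

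The total count per library ran from 13731520 to 19234924. Libraries differed in how counts depended on gene length: the slope on log2 transcript length of each library's log2 CPM, relative to the mean library, lay between -0.15 for 3 h replicate 2 and 0.15 for 24 h replicate 2, and it was below 0 in every library of 0, 1 and 3 h and above 0 in every library of 6 and 24 h. Of the marker genes, VIM, CD44 and AXL were abundant at 0 h with 1956, 396 and 424 TPM (a level scaled by gene length and library total). Of the other listed basal B markers, ZEB1 had 14.9 TPM and CDH2 0.48 TPM. ESR1 had at most 2 counts and PGR at most 1 in any library, and CDH1 had 4 to 16. The other listed luminal or epithelial markers were expressed, GATA3 with 105 to 213 counts (9.19 TPM at 0 h) and EPCAM with 204 to 346 (21.2 TPM). EPCAM was lower at 6 h (log2 -0.38, edgeR adjusted p = 0.0128), and of the basal B markers VIM was lower at 24 h (-0.36, 0.000305). CD44 was higher at 6 h (0.22), as were AXL (0.30) and ZEB1 (0.52), and the last 2 also at 24 h (0.36 and 0.42), all with an adjusted p below 0.05. The 4 leukocyte and endothelial markers summed to between 1.92 and 5.50 CPM, with CD3E at 0 in all 17 libraries and PTPRC at 5 counts or fewer. PECAM1 of that list rose at 24 h, from 1.43 ± 0.45 to 3.21 ± 0.67 CPM (SD, n = 3 and 3, edgeR adjusted p = 0.00258), and its part in the results was not tested.

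Because IL6 and IL11 were the members with the highest fold changes, and IL6ST the most abundant receptor chain, the sequence upstream of their starts is shown. RefSeq (GRCh38.p14) gave a promoter entry for 8 of the 10 members, and LIF and CLCF1 had none in the table used here. Searches used the 250 bases before each start, on both strands. Printed here are chr7:22726950-22727146 on the plus strand for IL6, chr19:55370464-55370713 on the minus strand for IL11 and chr5:55994994-55995213 on the minus strand for IL6ST. Bases next to the start that GENCODE 29 places in an exon of the gene (53 for IL6, 30 for IL6ST) are left off. Capitals mark motif matches.
IL6: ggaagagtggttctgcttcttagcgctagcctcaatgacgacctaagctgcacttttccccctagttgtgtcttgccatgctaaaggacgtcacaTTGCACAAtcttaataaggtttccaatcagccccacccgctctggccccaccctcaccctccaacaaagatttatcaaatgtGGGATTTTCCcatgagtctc
IL11: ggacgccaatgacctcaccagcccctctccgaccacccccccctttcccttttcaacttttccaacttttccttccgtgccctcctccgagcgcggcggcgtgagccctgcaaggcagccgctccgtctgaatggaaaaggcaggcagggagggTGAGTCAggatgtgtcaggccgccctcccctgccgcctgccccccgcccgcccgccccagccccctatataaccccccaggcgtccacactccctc
IL6ST: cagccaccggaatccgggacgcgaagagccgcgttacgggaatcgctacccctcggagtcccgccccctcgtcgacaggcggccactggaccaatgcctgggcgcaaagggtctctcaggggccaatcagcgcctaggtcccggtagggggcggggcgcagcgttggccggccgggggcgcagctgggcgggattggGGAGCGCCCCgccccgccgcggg
The IL6 window holds an NF-kappaB consensus match 73 to 64 bases before the start and a C/EBP match (TTGCNNAA) 155 to 148 bases before it. The IL11 window holds an AP-1 match (TGANTCA) 96 to 90 bases before the start. That of IL6ST holds an NF-kappaB match 53 to 44 bases before its start, read on the strand opposite to the one printed. A STAT match (TTCNNNGAA) was found upstream of 2 of the LIFR starts. C/EBP matches also stood 73 to 66 bases before the OSMR start and 31 to 24 bases before a LIFR start. The windows of IL6R, STAT3 and SOCS3 held no match of these motifs. Those of SOCS3 lay before RefSeq starts at chr17:78360925 and chr17:78359667. The bases just before its GENCODE start, chr17:78360077, were in neither window and were not searched. Of 35116 windows of the same length, 9.96% hold the NF-kappaB consensus, 9.05% the C/EBP, 6.57% the AP-1 and 6.57% the STAT letters. These matches describe letters and no binding was measured. In the 3′ untranslated region of IL6, 429 bases long in the GENCODE transcript used, the pentamer ATTTA stood 6 times, or 14.0 per kb. The other members ranged from 1.47 (IL6R) to 4.37 per kb (LIFR). The median over 19137 protein-coding genes was 1.45 per kb, and 8.6% of them had 5 or more per kb.

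Each later time was compared with 0 h, and a gene is called when its edgeR p-value, adjusted over the 15365 genes tested, is below 0.05. At 1 h, IL6 was the 1 member called higher, where 0.260% of all tested genes were, and edgeR called 0 lower (0.0521% of all genes). At 3 h, 4 members were called higher (IL6, LIF, IL11 and CLCF1, against 9.04% of all genes) and 2 lower (LIFR and SOCS3, against 8.71%), or 6 in all against 17.7%. At 6 h, 6 were called higher (the 4 cytokines, IL6ST and STAT3, against 16.9%) and SOCS3 lower (13.2%). At 12 h, 3 were called higher (IL6, IL11 and STAT3, against 5.96%) and 0 lower (6.48%). At 1 and 12 h, 0 members were lower at an unadjusted p under 0.05 as well, and DESeq2 and limma-voom also called 0 lower. At 24 h, 6 were called higher (IL6, IL11, IL6ST, LIFR, OSMR and STAT3, against 18.0%) and CLCF1 lower (17.1%), or 7 in all against 35.1%. The median log2 fold change of the 10 members was -0.06, -0.15, 0.45, 0.17 and 0.49 at the 5 times, while the median over all tested genes stayed between -0.02 and 0.00. In the F-test over all times, 9 of the 10 members were called, against 64.2% of all genes, and IL6R was not (adjusted p = 0.123). Exact permutation tests of a single gene in 2 groups of this size cannot go below p = 0.1, and that is what they gave for the called members.

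**Figure D1:**
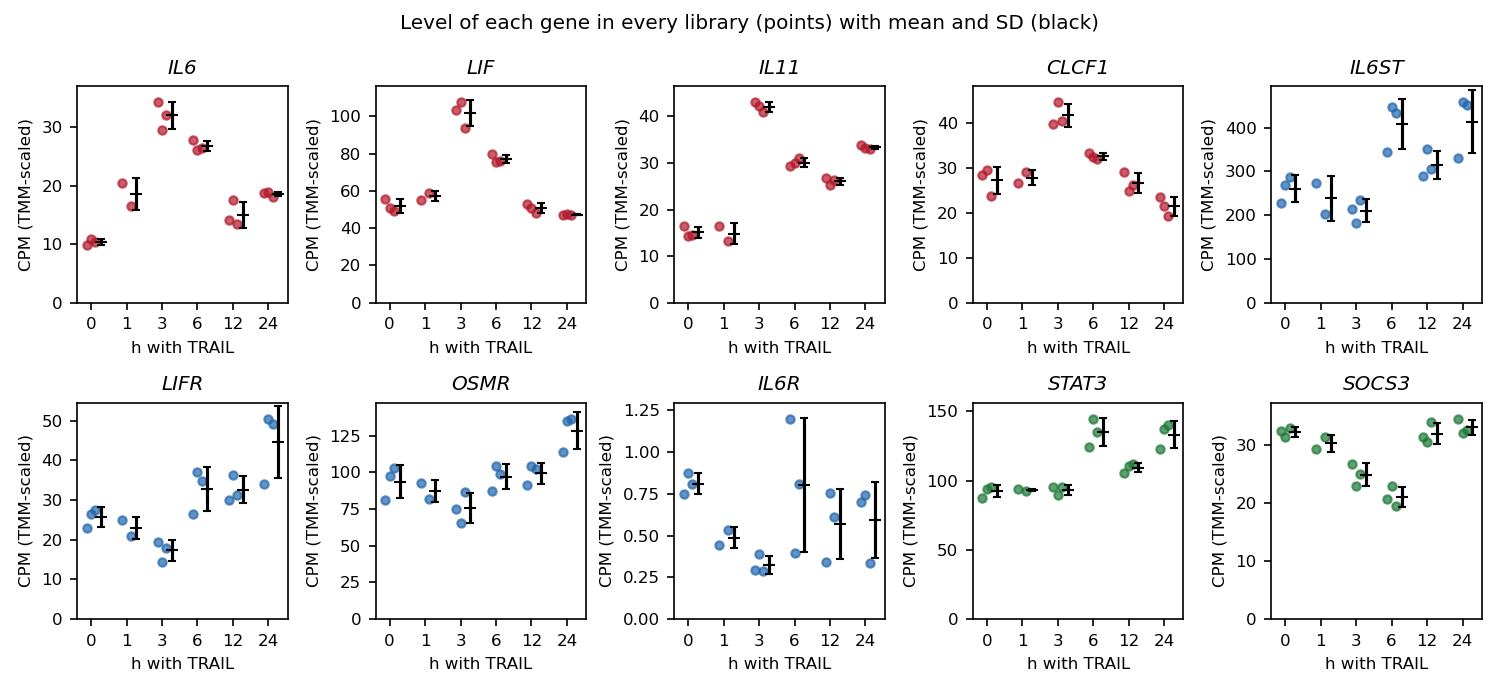
Level of each member in every library (coloured points), in CPM after TMM scaling, against hours with TRAIL, with the mean and SD of each time in black. The 4 cytokines (red) are highest at 3 h, IL6ST, LIFR, OSMR and IL6R (blue) have their lowest mean there, and SOCS3 (green) is lowest at 6 h.

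IL6 is a cytokine that acts on immune and tumour cells, and its gene lies on the plus strand at chr7:22725884-22732002 (GENCODE 29, GRCh38). Its level was 9.83, 10.9 and 10.3 CPM (counts scaled to library totals) in the 0 h libraries and 20.5 and 16.6 CPM at 1 h. It reached 34.3, 29.6 and 32.2 CPM at 3 h and stood at 27.9, 26.1 and 26.5 CPM at 6 h. Every library of a later time exceeded every 0 h library, down to the lowest at 12 h (14.1, 17.5 and 13.5 CPM), and 24 h gave 18.7, 19.0 and 18.2 CPM. Against 0 h (10.4 ± 0.54 CPM, SD, n = 3), IL6 was 1.79-fold at 1 h (log2 0.84 ± 0.12 SE, edgeR adjusted p = 0.000578) and 3.09-fold at 3 h (1.63 ± 0.10, 1.48e-09). It was then 2.59-fold at 6 h (1.37 ± 0.10), 1.46-fold at 12 h (0.54 ± 0.11) and 1.80-fold at 24 h (0.84 ± 0.11), with adjusted p-values of 2.72e-08, 0.00288 and 1.51e-05. Ordered by mean level, 3 h stood above 6 h without overlap, 24, 1 and 12 h overlapped with their neighbours, and 0 h was lowest. The call at 1 h rests on replicate 1: without it the log2 fold change was 0.68 and the adjusted p 0.0511, with the lone 1 h library assumed to vary like the other groups. Annotated antisense genes overlap IL6, and its count was not whole in 2 libraries.

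LIF, a cytokine named for its effect on leukaemia cells, and CLCF1, which signals through a complex of IL6ST and LIFR with CNTFR, rose by 3 h and fell again by 12 h. LIF was 55.8, 50.6 and 48.9 CPM at 0 h, 103, 108 and 93.9 CPM at 3 h and 79.8, 75.5 and 76.1 CPM at 6 h. At 1 h it was 55.2 and 58.9 CPM, at 12 h 53.1, 50.8 and 47.9 CPM and at 24 h 47.2, 47.5 and 47.0 CPM. The 3 h and 6 h libraries lay above every 0 h library, and those of 1 h and 12 h overlapped with 0 h. LIF was 1.96-fold at 3 h (log2 0.97 ± 0.07 SE, adjusted p = 3.69e-09) and 1.49-fold at 6 h (0.57 ± 0.07, 5.87e-06). Its log2 differences at 12 and 24 h, -0.03 and -0.13, did not pass the test (adjusted p = 0.786 and 0.133), although the 24 h libraries lay below those of 0 h. LIF occupies chr22:30240447-30246851 on the minus strand.

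CLCF1 was 28.4, 29.5 and 23.8 CPM at 0 h and 26.6 and 29 CPM at 1 h, and rose to 39.8, 44.7 and 40.5 CPM at 3 h. It then stood at 33.4, 32.3 and 32.0 CPM at 6 h, at 29.1, 24.8 and 26.2 CPM at 12 h and at 23.5, 21.4 and 19.2 CPM at 24 h. The 24 h libraries were thus all below the lowest of 0 h. The log2 fold change was 0.61 ± 0.09 (SE) at 3 h (adjusted p = 0.000113), 0.26 ± 0.09 at 6 h (0.0369) and -0.35 ± 0.09 at 24 h (0.00764). The call at 6 h was lost without replicate 1 or 3 of 0 h or without any of the 6 h libraries (log2 0.17 to 0.29, adjusted p 0.0594 to 0.186), and that at 24 h without replicate 3 of 24 h (-0.28, 0.0517).
With trends in length and GC content taken out of each library, the 24 h difference was -0.18 (adjusted p = 0.0599) and the 6 h difference 0.42 (9.18e-05). CLCF1 lies at chr11:67364168-67374177 on the minus strand, where AP003419.1 overlaps it on the same strand and RAD9A on the other.

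IL11, a cytokine that uses IL11RA and IL6ST, kept a raised level to the last time. It was 16.4, 14.2 and 14.6 CPM at 0 h and 16.5 and 13.2 CPM at 1 h, which overlap. It reached 43.1, 42.2 and 40.9 CPM at 3 h, 29.3, 30.0 and 31.0 CPM at 6 h, 26.7, 25.2 and 26.4 CPM at 12 h and 33.8, 33.3 and 33.0 CPM at 24 h. From 3 h on, every library lay above every library of 0 and 1 h. IL11 was 2.79-fold at 3 h (log2 1.48 ± 0.08 SE, adjusted p = 1.13e-10) and 2.21-fold at 24 h (1.15 ± 0.08, 7.21e-09). Between them it was 2.00-fold at 6 h (1.00 ± 0.08, 5.87e-08) and 1.73-fold at 12 h (0.79 ± 0.08, 4.15e-06). In order of mean level, 3, 24, 6 and 12 h did not overlap with each other, and 0 and 1 h stood below. The 4 calls of IL11 held whichever of the compared libraries was left out. Its position is chr19:55364389-55370463 on the minus strand.

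**Figure D2:**
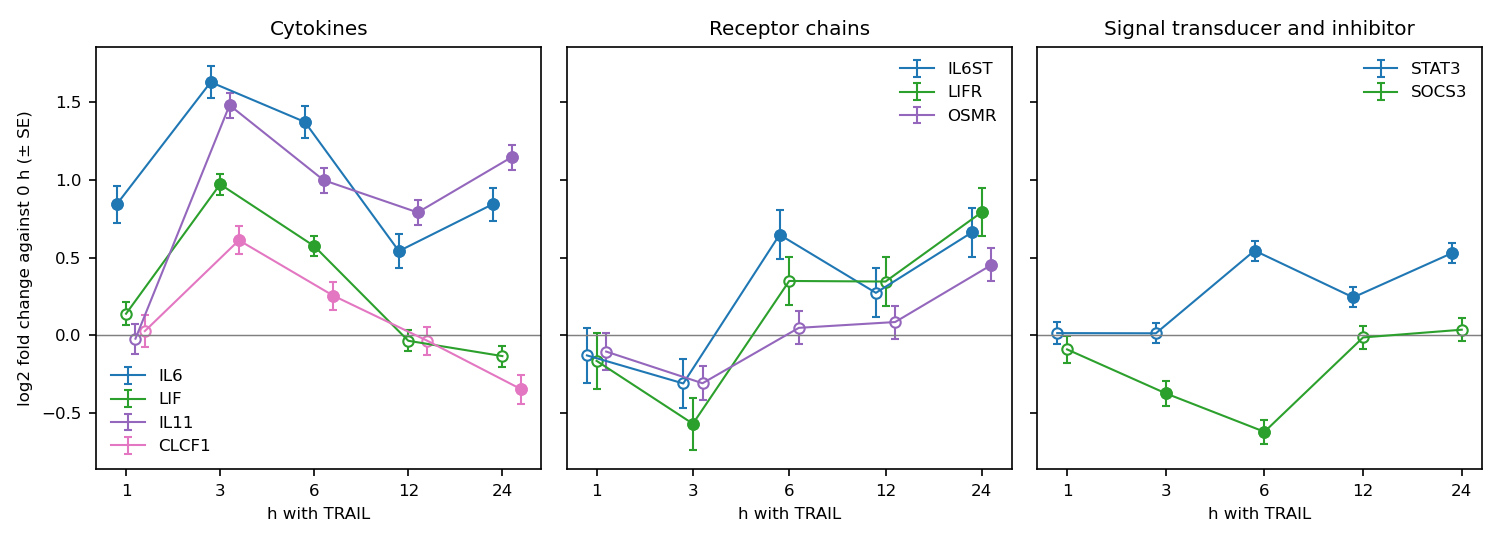
Log2 fold change against 0 h (vertical axis, with SE) at each later time (horizontal axis, in h) for cytokines, receptor chains, and STAT3 with SOCS3, with filled points called at an adjusted p below 0.05. IL6 and IL11 are filled from 3 h to 24 h, while LIF and CLCF1 are filled and above 0 at 3 and 6 h. IL6R is left out because of its low counts.

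Genes with time courses like those of IL6 and IL11 were sought among the 11369 genes whose average log2 CPM was 2 or more, by the root mean square difference of the 5 log2 fold changes. The genes nearest to IL6 were TNFAIP3 (difference 0.23), NFKBIA (0.35) and JUNB (0.37). TNFAIP3 and NFKBIA encode inhibitors in NF-kappaB signalling, and JUNB an AP-1 subunit. At 3 h their log2 fold changes were 1.57, 1.39 and 1.75. Those nearest to IL11 were IL24 (0.22), NFKBIE (0.29) and RELB (0.31), which encode a cytokine, an NF-kappaB inhibitor and an NF-kappaB subunit. At 24 h they had log2 fold changes of 0.98, 0.59 and 0.76. All 5 comparisons share the 0 h libraries, and likeness here is a description over 5 values.

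The receptor chains IL6ST, LIFR and OSMR had their lowest mean level at 3 h, where IL6ST and OSMR overlapped with 1 h. The mean was highest at 24 h, but the 24 h and 6 h libraries overlapped for IL6ST (413 ± 71.8 and 409 ± 56.3 CPM, SD, n = 3 and 3) and for LIFR. IL6ST, the shared signalling chain, was 227, 269 and 287 CPM at 0 h, 275 and 202 CPM at 1 h and 214, 182 and 235 CPM at 3 h. It was 344, 448 and 434 CPM at 6 h, 289, 351 and 305 CPM at 12 h and 331, 459 and 451 CPM at 24 h. All libraries from 6 h on lay above those of 0 h, and those of 1 and 3 h overlapped with them. IL6ST was 1.57-fold at 6 h (log2 0.65 ± 0.16 SE, adjusted p = 0.00814) and 1.59-fold at 24 h (0.66 ± 0.16, 0.00581). The difference at 12 h, 0.27 ± 0.16, did not pass the test (adjusted p = 0.283). IL6ST spans chr5:55935095-55994993 on the minus strand, and its count was not whole in 16 libraries, so fragments were shared with other entries.

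LIFR, the chain that binds LIF, was 23.0, 26.6 and 27.6 CPM at 0 h, 24.9 and 21.0 CPM at 1 h and 19.5, 14.4 and 18.0 CPM at 3 h. It was 26.4, 37.1 and 34.8 CPM at 6 h, 30.1, 36.4 and 31.3 CPM at 12 h and 34.1, 50.6 and 49.2 CPM at 24 h. The 3 h libraries lay below and the 12 and 24 h libraries above all of 0 h, and 6 h overlapped. LIFR fell by 0.57 on the log2 scale at 3 h (SE 0.17, adjusted p = 0.0289) and was 1.73-fold at 24 h (0.79 ± 0.15, 0.00114). The differences at 6 and 12 h, 0.35 and 0.35, did not pass the test (0.0996 and 0.157). The call at 3 h was lost without replicate 2 or 3 of 0 h or without replicate 2 or 3 of 3 h (log2 -0.59 to -0.45, adjusted p 0.0528 to 0.129). Without replicate 1 of 6 h, the 6 h difference was 0.48 with an adjusted p of 0.0242. LIFR spans chr5:38474963-38608354 on the minus strand, with LIFR-AS1 on the other strand, and its count was not whole in 8 libraries.

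OSMR, a chain of the oncostatin M receptor and, with IL31RA, of the IL31 receptor, was 81.0, 97.4 and 103 CPM at 0 h, 92.6 and 82.0 CPM at 1 h and 75.2, 65.5 and 86.5 CPM at 3 h. It was 87.7, 104 and 99.1 CPM at 6 h, 91.3, 105 and 103 CPM at 12 h and 114, 135 and 137 CPM at 24 h. Only the 24 h libraries stood clear of 0 h. OSMR was 1.37-fold there (log2 0.45 ± 0.11 SE, adjusted p = 0.00356), and its difference at 3 h, -0.31 ± 0.11, had an adjusted p of 0.0578. That difference passed without replicate 1 of 0 h (-0.40, 0.0170) or replicate 3 of 3 h (-0.41, 0.0192), and in DESeq2 (-0.31, 0.0342). The gene lies at chr5:38845858-38945596 on the plus strand and overlaps RICTOR on the other.

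IL6R, the chain that binds IL6, had 4 to 19 counts per library, or 0.29 to 1.20 CPM. It passed the filter on low counts through 3 libraries of 0 h, 2 of 6 h, 1 of 12 h and 2 of 24 h. The 0 h libraries held 12, 14 and 13 counts, those of 1 h 7 and 8, and those of 3 h 4, 5 and 4. The 6 h libraries held 19, 6 and 15 counts, those of 12 h 5, 15 and 11, and those of 24 h 12, 12 and 5. The mean level was lowest at 3 h, but the 3 h libraries overlapped with those of 12 and 24 h. Those of 6, 12 and 24 h were spread widely. The difference at 3 h against 0 h was -1.31 ± 0.47 (log2, SE) with an adjusted p of 0.0538. No difference of IL6R against 0 h passed the test, although that at 3 h did with library size only (-1.37, 0.0397), with only the 2 groups (-1.30, 0.0363) and with replicates 2 and 3 of 6 and 24 h averaged (-1.31, 0.0401). The gene lies at chr1:154405193-154469450 on the plus strand. Bulk counts do not tell fewer cells with a transcript from less of it in each cell.

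The receptor chains and STAT3 have long transcripts. The longest GENCODE transcript has 9057 bases for IL6ST and 10089 for LIFR, which are among the 1533 tested genes of 7276 bases or more, and 5914 for IL6R, 5539 for OSMR and 5047 for STAT3. Those of the cytokines and SOCS3 have 1527 to 3969 bases. The 1533 long genes had median log2 differences of -0.06, 0.20 and 0.24 at 3, 6 and 24 h. The mitochondrial share of counts was 7.99% to 8.97% at 3 h, 3.97% to 5.45% at 6 h and 3.66% to 4.14% at 24 h, against 5.53% to 8.37% at 0 h, and its part in these results was not tested. At each of the 6 times, the library with the lowest slope on length also had the lowest level of IL6ST, of LIFR, of OSMR and of STAT3. The same held at 3 times for IL6, 2 each for IL6R and IL11 and 1 for SOCS3, and at no time for LIF and CLCF1. With the trends in length and GC content taken out, IL6ST was higher by log2 0.43 at 6 h and 0.43 at 24 h (adjusted p = 0.000692 and 0.000681). LIFR was lower by log2 0.48 at 3 h and higher by 0.55 at 24 h, OSMR higher by 0.30 at 24 h and STAT3 by 0.46 at 6 h and 0.44 at 24 h, and all stayed called. OSMR and IL6R at 3 h passed under that setting (-0.27 and -1.28, adjusted p = 0.0152 and 0.0487). The SE of the 24 h difference was 0.08 for IL6ST, against 0.16 without the correction.

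**Figure D3:**
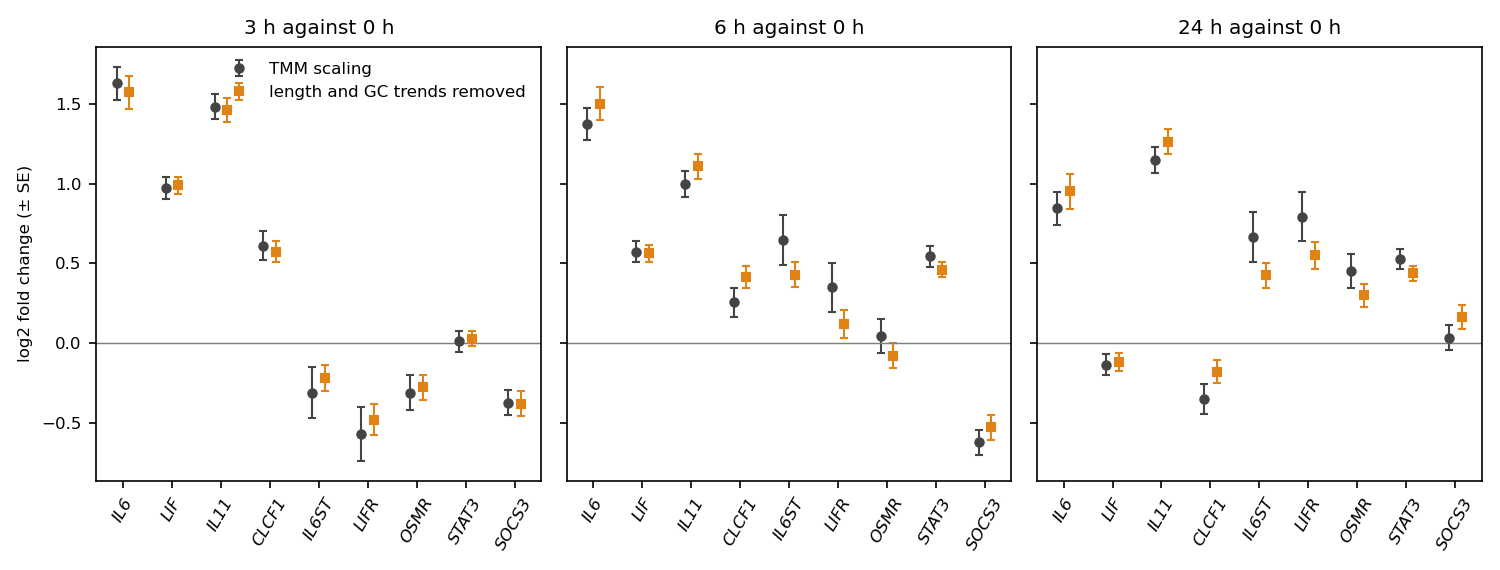
Log2 fold change against 0 h (vertical axis, with SE) of 9 members at 3, 6 and 24 h, with TMM scaling (grey circles) and after trends with gene length and GC content were taken out of each library (orange squares). At 6 and 24 h, the corrected values of IL6ST, LIFR, OSMR and STAT3 lie lower on the axis, sign included. Those of IL6, IL11 and CLCF1 lie higher, which brings CLCF1 nearer to no difference at 24 h.

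STAT3, the factor that carries the signal to the nucleus, differed from 0 h by log2 0.02 at 1 h and 0.01 at 3 h (adjusted p = 0.992 and 0.909) and rose by 6 h. It was 87.4, 94.1 and 95.7 CPM at 0 h, 93.9 and 92.8 CPM at 1 h and 95.2, 89.4 and 95.2 CPM at 3 h. It was 125, 145 and 135 CPM at 6 h, 106, 111 and 112 CPM at 12 h and 123, 137 and 140 CPM at 24 h. All libraries from 6 h on lay above those of 0, 1 and 3 h. STAT3 was 1.46-fold at 6 h (log2 0.55 ± 0.06 SE, adjusted p = 7.80e-06) and 1.44-fold at 24 h (0.53 ± 0.06, 1.14e-05). At 12 h it was 1.19-fold (0.24 ± 0.06, 0.0178). The call at 12 h was lost without replicate 1 of 0 h (0.20, adjusted p = 0.102) or without replicate 2 (0.24, 0.0676) or 3 (0.23, 0.0577) of 12 h. STAT3 spans chr17:42313324-42388568 on the minus strand.

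SOCS3, the inhibitor, moved the other way from the cytokines at 3 and 6 h. It was 32.5, 31.3 and 32.9 CPM at 0 h, 29.2 and 31.3 CPM at 1 h, 26.8, 22.9 and 25.0 CPM at 3 h and 20.7, 22.9 and 19.5 CPM at 6 h. It was back at 31.3, 30.5 and 34.0 CPM at 12 h and 34.5, 32.1 and 32.5 CPM at 24 h. The 3 h and 6 h libraries all lay below 0 h, and those of 12 and 24 h overlapped with it. SOCS3 fell by 0.37 on the log2 scale at 3 h (SE 0.08, adjusted p = 0.00308) and by 0.62 at 6 h (SE 0.08, adjusted p = 1.80e-05). Both calls held whichever of the compared libraries was left out. At 12 and 24 h the differences were -0.01 and 0.04 (adjusted p = 0.934 and 0.737). The gene lies at chr17:78356778-78360077 on the minus strand.

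Per length, at 0 h, IL6ST had the highest level of the members (84.8 ± 14.0 TPM, SD, n = 3). CLCF1 (41.5), OSMR (39.5), LIF (39.2), SOCS3 (35.4) and STAT3 (31.6 TPM) followed. IL11 (16.9), IL6 (15.1) and LIFR (6.54 TPM) were lower and IL6R was lowest (0.38 TPM). At 3 h, LIF had 68.8 ± 2.46 TPM, IL6ST 61.1 ± 9.99 TPM and IL11 42.4 ± 1.37 TPM. TPM are not TMM-scaled, and on this scale some times changed order: IL6 had 41.7 ± 4.14 TPM at 3 h and 43.7 ± 0.88 TPM at 6 h, and IL11 was highest at 24 h (45.2 ± 1.62 TPM). SOCS3 had 24.5 ± 2.50 TPM at 3 h and 25.9 ± 2.69 TPM at 6 h, and LIF at 24 h (43.1 TPM) lay above 0 h. At 24 h, IL6ST had 162 ± 34.5 TPM and IL6 32.5 ± 1.67 TPM.

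Each time was also compared with the time before it. From 1 to 3 h the 4 cytokines rose, against 3.17% of all genes called higher, 2.56% lower and 5.73% in either direction, with log2 changes of 0.79 for IL6, 0.83 for LIF and 0.58 for CLCF1, and IL11 was 2.83-fold. From 3 to 6 h all 10 members were called, against 43.2% of all genes: IL6, LIF, IL11, CLCF1 and SOCS3 fell (20.3% of all genes were called lower), and IL6R, IL6ST, LIFR, OSMR and STAT3 rose (22.9% higher). The falls were 0.26 to 0.48 for the cytokines and 0.25 for SOCS3 on the log2 scale, and the rises were 0.96 for IL6ST, 0.92 for LIFR, 0.36 for OSMR and 0.53 for STAT3. With length and GC trends removed, IL6 (-0.07, adjusted p = 0.570), CLCF1 (-0.16, 0.0570) and SOCS3 (-0.15, 0.146) were no longer called between 3 and 6 h, and the rises were 0.65 for IL6ST, 0.60 for LIFR, 0.20 for OSMR (adjusted p = 0.0497) and 0.43 for STAT3. These calls were also lost on leaving out 1 library: IL6 without replicate 1 or 3 of 3 h or 2 or 3 of 6 h, SOCS3 without replicate 1 of 3 h or 3 of 6 h, and OSMR without replicate 2 of either time. IL6R, at 4 to 19 counts, lost its call without replicate 1 or 3 of either time, so that no omission left all 10 called. The highest adjusted p-values on these omissions were 0.125 for IL6, 0.108 for SOCS3, 0.0804 for OSMR and 0.140 for IL6R.

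From 6 to 12 h, 4 members fell (11.9% of all genes were called lower): IL6 by 0.83, LIF by 0.61, STAT3 by 0.30 and CLCF1 by 0.29. SOCS3 rose by 0.61 (8.70% higher, adjusted p = 2.57e-05), so that 5 members were called against 20.6% of all genes. From 12 to 24 h, IL11 (0.36), OSMR (0.37) and STAT3 (0.28) rose (6.42% higher) and CLCF1 fell by 0.31 (5.60% lower). The call of CLCF1 between 6 and 12 h was lost on leaving out any library but replicate 1 of 12 h (adjusted p up to 0.105). Between 12 and 24 h, CLCF1 lost its call without replicate 1 or 3 of 12 h or 2 or 3 of 24 h (up to 0.172) and OSMR without the same libraries (up to 0.132). STAT3 lost it without replicate 3 of 24 h (0.0548). Between 3 and 24 h, 9 members were called, against 54.2% of all genes, and these calls held in each omission and alternative run. The 4 cytokines were lower at 24 h (26.8% of all genes lower): LIF by 1.11, CLCF1 by 0.96, IL6 by 0.78 and IL11 by 0.33 on the log2 scale. LIFR (1.36), IL6ST (0.97), OSMR (0.76), STAT3 (0.52) and SOCS3 (0.41) were higher (27.4% higher). With length and GC trends removed, IL11 was lower by 0.20 (adjusted p = 0.0190) and IL6ST higher by 0.64.

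Of the 11 other ligands and receptors listed, 7 passed the filter. OSM, IL27, IL31 and CNTFR had at most 2 counts in any library, and OSM is the ligand of OSMR. IL11RA, the chain that binds IL11, fell at 24 h from 4.23 ± 0.39 to 2.87 ± 0.31 CPM (log2 -0.56 ± 0.17 SE, adjusted p = 0.0149). IL31RA rose there (7.59 to 10.8 CPM, log2 0.51), IL27RA rose at 12 h (12.7 to 18.5 CPM, 0.54) and CNTF at 6 h (1.49 to 2.55 CPM, 0.78). These 4 were named because no other gene of the list was called at any time, after their values were seen. Of the 7 tested, 1 was thus called higher at 6 h (against 16.9% of all genes) and 1 at 12 h (5.96%). At 24 h, 1 was called higher (18.0%) and 1 lower (17.1%). The call of CNTF was lost without replicate 1 or 3 of 0 h or replicate 3 of 6 h, that of IL11RA without replicate 1 of 0 h or 24 h, and that of IL31RA without replicate 3 of 24 h.

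The list of JAK-STAT signalling genes and regulators holds 19 genes, all tested. At 6 h, 9 were called higher and 1 lower, and at 24 h 8 and 1, with medians of log2 0.21 and 0.25. At these times, 16.9% and 18.0% of all tested genes were called higher, and 13.2% and 17.1% lower. The 1533 tested genes with the longest transcripts had medians of log2 0.20 and 0.24 there. The part of transcript length in the medians of the list was not tested. At 3 h 1 was higher and 2 lower (median -0.05, against 9.04% and 8.71% of all genes), and at 12 h 2 were higher and 1 lower (0.12, against 5.96% and 6.48%). The median over all genes was between -0.02 and 0.00. On leaving out 1 library, the counts at 3 h ranged from 0 to 1 higher and 0 to 3 lower, and moved by over 1.5 times without replicate 2 or 3 of 0 h or 1 or 2 of 3 h. Those at 12 h ranged from 0 to 2 higher and 0 to 2 lower, and moved as much without any 0 h library or replicate 2 of 12 h, and the count lower at 24 h did without replicate 1 or 2 of 0 h or of 24 h. The count of 9 at 6 h fell to 4 without replicate 1 of 0 h, 6 without replicate 2 of 0 h, 4 without replicate 2 of 6 h and 3 without replicate 3 of 6 h, and was 3 with replicates 2 and 3 of 6 h averaged. JAK1, a kinase bound to IL6ST, was 99.2 ± 3.78 CPM at 0 h and 128 ± 6.55 CPM at 24 h (log2 0.36 ± 0.07 SE, adjusted p = 0.000521). GRB2, an adaptor of the MAP kinase branch, went from 100.1 ± 5.15 to 123 ± 3.39 CPM (0.30 ± 0.05, 0.000357). Both were also called at 6 and 12 h, by 0.17 to 0.24, and these calls were lost in some omissions: JAK1 at 6 h without replicate 1 or 2 of 0 h or 2 or 3 of 6 h and at 12 h without replicate 1 or 2 of 0 h or 2 or 3 of 12 h, and GRB2 at 6 h without replicate 1 of 0 h or 3 of 6 h and at 12 h without replicate 1 of 0 h (adjusted p up to 0.118 for JAK1 and 0.121 for GRB2).

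Of 22 listed STAT3 target genes, 19 were tested, and the liver acute-phase genes HP, FGB and FGG had at most 1 count per library. At 3, 6, 12 and 24 h, 5, 6, 5 and 6 of them were called higher (against 9.04%, 16.9%, 5.96% and 18.0% of all genes), and 2, 5, 6 and 7 lower (8.71%, 13.2%, 6.48% and 17.1%). Their medians were log2 0.05, -0.03, -0.08 and 0.06 at those times. The 5 lower at 6 h fell to 1 or 2 on leaving out any of the compared libraries, and to 2 with length and GC trends removed. Without replicates 2 or 3 of 0 h or 1 or 2 of 12 h, 3 were called higher at 12 h. JUNB was called at all 5 times, with 29.4 ± 0.14 CPM at 0 h and 99.2 ± 8.42 CPM at 3 h (log2 1.75 ± 0.10 SE, adjusted p = 3.46e-10), and its call at 24 h (0.35) was lost without replicate 2 of 24 h (0.0588).

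BCL3, a nuclear partner of NF-kappaB, rose from 13.2 ± 1.47 CPM at 0 h to 25.7 ± 2.19 CPM at 3 h (log2 0.96 ± 0.11 SE) and was 25.2 ± 0.55 CPM at 24 h. PIM1, a survival kinase, fell from 34.2 ± 1.29 to 19.7 ± 1.40 CPM at 3 h (log2 -0.80 ± 0.07, adjusted p = 2.32e-07), as SOCS3 did, and was 45.4, 47.6 and 45.1 CPM at 6, 12 and 24 h. FOS, an immediate-early AP-1 gene, fell by 0.95 at 1 h and 1.85 at 3 h on the log2 scale, stood at -0.03 at 6 h and fell by 1.57 at 12 h and 1.05 at 24 h. Its call at 1 h was lost without replicate 1 of 1 h (-0.83, adjusted p = 0.118).

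SERPINA3, an acute-phase protease inhibitor, fell from 5.56 ± 0.28 CPM at 0 h to 1.65 ± 0.47 CPM at 24 h (log2 -1.74 ± 0.19 SE, adjusted p = 3.51e-06). LCN2, a siderophore-binding acute-phase protein, fell from 3.28 ± 0.48 to 0.38 ± 0.29 CPM (-3.04 ± 0.34, 4.35e-06), with as few as 2 counts in a library. At 6 h both were called lower by log2 0.47 and 0.70, but SERPINA3 lost this call without any of the compared libraries (adjusted p up to 0.118) and LCN2 without any but replicate 2 of 0 h (up to 0.177). IRF1, an interferon-response factor, rose by 0.31 at 3 h, and its calls at 6 h (-0.18) and 24 h (0.21) were lost on omissions: at 6 h without any compared library but replicate 1 of 0 h (adjusted p up to 0.208), and at 24 h without replicate 1 or 2 of 0 h or 1 of 24 h (up to 0.124). The IRF1 count was not a whole number in each of the 17 libraries.

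**Figure D4:**
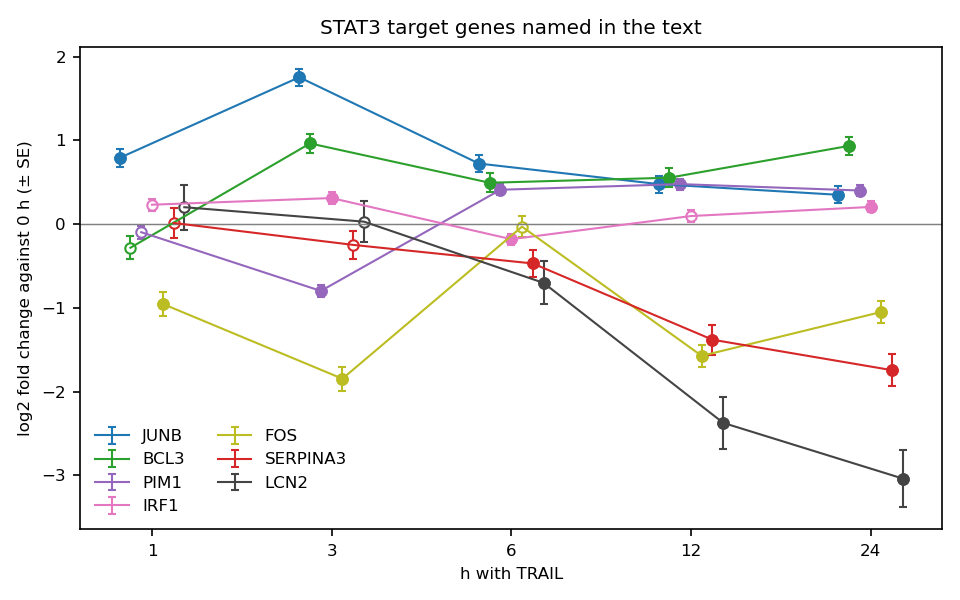
Log2 fold change against 0 h (vertical axis, with SE) of 7 STAT3 target genes at each later time (horizontal axis, in h), with filled points called at an adjusted p below 0.05. JUNB and BCL3 lie above 0 from 3 h on, SERPINA3 and LCN2 fall to -1.74 and -3.04 at 24 h, and PIM1 and FOS are lowest at 3 h.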

How the data were processed

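RNA was measured in 17 libraries of MDA-MB-231 cells. The authors deposited 1 table of expected counts per gene, estimated numbers of fragments not scaled to depth or length, which came from RSEM per the file's name. Cutadapt 1.18, STAR 2.7.0f and hg38 are listed in the submitters' processing notes. The annotation release, the RSEM version and the strand setting of the counting are not given in the sources used here. Of the deposited expected counts, 10.8% are not whole (tolerance 1e-06), where fragments are divided between genes, so overlapping and antisense genes are uncertain. Libraries were stranded and poly(A)-selected per the labels' kit name.

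Expected counts were rounded. Genes were kept by filterByExpr and scaled by TMM (factors 0.939 to 1.06) in edgeR 4.0.16 (R 4.3.3), and a robust quasi-likelihood model with 1 mean per time was fitted to all 17 libraries, tested on simulated data first. P-values of the 15365 genes tested were Benjamini-Hochberg adjusted together, and all adjusted p-values come from this test unless another tool is named. Each SE is the unshrunken coefficient over the square root of its F statistic, and the common biological coefficient of variation was 7.06%. Levels in CPM are TMM-scaled, and TPM, meant for levels of different genes, divide by merged exon length and are not TMM-scaled. Lengths, positions and names come from GENCODE 29 (GRCh38), which 58597 of 58870 entries match without the version and 47456 with it. Their build is hg38 in the notes, so coordinates share the assembly.

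Replicates were compared first: chi-square per gene was 1.57 for replicates 2 and 3 of 6 h and 1.67 for replicates 2 and 3 of 24 h, against 3.44 or more for other pairs, and near 1 is sampling noise. They were kept as separate replicates, with their averages as an alternative. Other alternatives were RLE scaling, library size only, no filter, DESeq2 1.42.0, limma-voom (limma 3.58.1), only the 2 groups compared, a replicate block, offsets for length and GC content (splines with 4 degrees of freedom) alone or with that block, and each library left out. Those for the 24 h against 3 h values and the lists were added after seeing the data. The members and lists were chosen with earlier results of these data known. A listed gene is named when called at 3 or more times, or once with a log2 change of 1 or more either way.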

Additional observations from a re-analysis of the deposited data

Results flagged for a closer look

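For 9 members the differences from 0 h at 3 h and at 24 h were unequal, by the direct test of 24 h against 3 h, in which all 10 members were tested. That pair of times was added after CLCF1 and LIFR had been seen on opposite sides of 0 h, so the test is not independent of that observation. Each change below is the 24 h value minus the 3 h value on the log2 scale, with edgeR's adjusted p.

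Among the ligands, LIF changed by -1.11 (2.42e-10), from 0.97 at 3 h to -0.13 at 24 h against 0 h. CLCF1, a ligand for the complex of IL6ST with LIFR, changed by -0.96 (1.30e-07), from 0.61 to -0.35, and was the ligand called on both sides of 0 h. IL6 changed by -0.78 (2.07e-06), from 1.63 to 0.84, and IL11 by -0.33 (0.000818), from 1.48 to 1.15. Both thus stayed above 0 h at 24 h.

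The receptor chains changed the other way. LIFR changed by 1.36 (4.65e-06), from -0.57 to 0.79, both called. IL6ST changed by 0.97 (0.000176), from -0.31 to 0.66, and OSMR by 0.76 (1.68e-05), from -0.31 to 0.45, and neither was called against 0 h at 3 h. STAT3 changed by 0.52 (2.80e-06), from 0.01 to 0.53. SOCS3 changed by 0.41 (0.000222), from -0.37 to 0.04. Of all tested genes, 26.8% were called lower and 27.4% higher between these times. Library slopes on transcript length ran from -0.15 to -0.066 at 3 h and from 0.017 to 0.15 at 24 h. The 1533 longest genes tested, IL6ST and LIFR among them, had medians against 0 h of -0.06 at 3 h and 0.24 at 24 h. With length and GC trends removed, the change of IL6ST was smaller. The call of CLCF1 against 0 h at 24 h was lost without replicate 3 of 24 h (-0.28, 0.0517) and with length and GC trends removed. That of LIFR at 3 h was lost without replicate 2 or 3 of either time (adjusted p up to 0.129).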

How the results depend on the processing

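Outside the omissions of single libraries, 664 of 725 recomputed log2 fold changes of members (against 0 h or the time before) kept their direction and call and 19 changed sign, none of them called before or after. In those 19, with library size only, CLCF1 (-0.0185) and STAT3 (-0.0317) at 1 h, STAT3 at 3 h (-0.0559), and LIF (7.86e-05) and SOCS3 (0.0208) at 12 h changed sign. So did STAT3 at 3 h with no filter (-0.00778), and CLCF1 at 1 h (-0.00927) and IL6R at 6 h (0.00195) with the replicate block. With length and GC offsets these were OSMR at 6 h (-0.0760), and LIF (0.00425), CLCF1 (0.0630) and SOCS3 (0.0913) at 12 h. With the replicate block and those offsets together, they were CLCF1 at 1 h (-0.0182), OSMR at 6 h (-0.0745), and LIF (0.00528), CLCF1 (0.0642) and SOCS3 (0.0915) at 12 h. With replicates 2 and 3 averaged, IL6R (0.127) and OSMR (-0.00121) changed sign at 6 h.

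Members called lower at 3 h were 4 in place of 2 with library size only, no filter, length and GC offsets, these with the replicate block, or only the 2 groups. Those called lower from 1 to 3 h were 1, 1, 1 and 3 under the first 4 of these settings, and from 3 to 6 h 3, 3, 2 and 2 in place of 5. Without a filter, 5 in place of 3 were called higher at 12 h. From 12 to 24 h, 6 in place of 3 were called higher without a filter, with the offsets and with the offsets and block, and 1 with replicates averaged, where 0 were called lower, as with only the 2 groups. At 24 h, 0 were called lower with the offsets, alone or with the block. The cause was not tested. Upon omission of single libraries, members called higher ranged from 0 to 1 at 1 h, 2 to 3 at 12 h, 5 to 6 at 6 h and 1 to 5 from 12 to 24 h, and were 4 in place of 5 from 3 to 6 h in every omission, and those called lower from 1 to 3 at 3 h, 0 to 1 at 24 h, 0 to 1 from 12 to 24 h, 3 to 5 from 3 to 6 h and 3 to 4 from 6 to 12 h. The log2 fold changes that changed sign, all uncalled, ranged at 1 h from -0.0594 to 0.0943 (CLCF1), -0.186 to 0.122 (IL11), -0.361 to 0.0690 (IL6ST) and -0.0223 to 0.0405 (STAT3). STAT3 at 3 h ranged from -0.0221 to 0.0449. At 6 h IL6R ranged from -0.385 to 0.298 and OSMR from -0.0471 to 0.120. At 12 h the ranges were -0.128 to 0.0282 (CLCF1), -0.0810 to 0.0167 (LIF), -0.0152 to 0.152 (OSMR) and -0.0606 to 0.0211 (SOCS3).

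The replicate numbers did not clearly pair the libraries: same-numbered libraries of different times correlated by -0.20 to 0.21, 8 of 40 pairs were over 0.1, and 7 of 17 libraries correlated best with their own number. The highest value was that of replicate 1 at 6 and 24 h, and pairs of other numbers had a median of -0.009. A batch shared by only some libraries was not tested. With the replicate block, 44 in place of 48 genes were called at 1 h, 2908 in place of 2727 at 3 h, 4690 in place of 4627 at 6 h, 1955 in place of 1911 at 12 h and 5459 in place of 5388 at 24 h. Among the members it moved OSMR at 3 h past the threshold (-0.31, adjusted p = 0.0234). Another scaling moved the median of all genes by under 0.1 on the log2 scale. IL6R had 4 to 19 counts per library, the least depth of the members.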
